A study of Mus musculus with 11 samples.

Results

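A set of 10 genes of the fibroblast growth factor (FGF) and ERK pathway was taken from the gene count table by their symbols: the ligand Fgf4, the receptors Fgfr1 and Fgfr2, and the feedback and target genes Spry2, Spry4, Dusp6, Etv4, Etv5, Spred1 and Spred2. All 10 of the 10 were present among 25239 genes in the table. The study sequenced poly(A)-selected RNA at day 0 from J1 cells, a mouse embryonic stem cell line, with 1 library for each of the genotypes labelled TKO_602, TKO_FL and TKO. TKO cells are mutant for DNA methyltransferases, and the design text writes TKO_602 and TKO_FL as additions to TKO. The sources used here do not give what the suffixes stand for, which alleles were removed or whether each line is 1 clone. All 3 lines grew on mitomycin C-treated embryonic fibroblast feeders in serum with LIF. The other 8 samples of the series, immunoprecipitations of modified DNA, were not analysed here.

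FGF4 is made by embryonic stem cells themselves and acts back on them through FGFR1 and FGFR2, which start the RAS, RAF, MEK and ERK cascade. In these cells ERK signalling opens the way out of naive pluripotency and, in the early embryo, steers cells towards primitive endoderm. ERK activity is read out by the ETS transcription factor genes Etv4 and Etv5, and it switches on its own inhibitors: the Sprouty proteins (Spry2, Spry4), the related Spred proteins, and DUSP6, a phosphatase that removes phosphate from ERK.

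The count table held 43158441 reads for TKO_602, 19573689 for TKO_FL and 21133660 for TKO. Dnmt1, read as a check of the labels, stood at 2444, 3364 and 159 CPM (read counts scaled to a common library size with TMM factors) in the TKO_602, TKO_FL and TKO libraries. All 8 stem cell markers read, Pou5f1 and Nanog among them, were at 1 CPM or more in each library. They summed to 7102, 7058 and 5710 CPM in TKO_602, TKO_FL and TKO. The near-equal sums of TKO_602 and TKO_FL hide differences, as 4 markers were higher and 4 lower in TKO_602. Zfp42 had 589 CPM in TKO_602 against 1200 in TKO_FL, and Klf4 had 356 against 169. At 1 CPM, 15 of 16 fibroblast feeder markers passed in each library too, so that threshold does not set cell types apart. With 1 library per genotype there is no spread between replicates, and no test was run: every difference below lies between 2 libraries. Intervals are exact 95% intervals for counting error only, with mates counted as 1 fragment. Per the file headers, the reads of TKO_602 were aligned into a folder of their own, so in both comparisons with TKO_602 the genotype cannot be told apart from the library's batch. A log2 fold has a pseudocount of 1 CPM and a call means at least 2-fold on that scale; folds given as ratios have no pseudocount.

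The 10 genes did not move as a block. Fgfr2, Spry4, Spry2 and Etv5 were highest in TKO_FL and lowest in TKO_602, Fgf4 and Spred2 were highest in TKO_602 and lowest in TKO, and Dusp6 and Spred1 were highest in TKO and lowest in TKO_602. The order TKO_FL, TKO, TKO_602 was that of 4 of the 10 genes and of 14.2% of the 13948 genes with at least 1 CPM in any library. The order of Fgf4 and Spred2 was that of 26.7% of these genes, and the order of Dusp6 and Spred1 that of 24.1%. For Spred1 counting error did not separate TKO from TKO_FL.

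Per kilobase of exon, Etv5 and Fgf4 led, Spred1 was ninth and Fgfr2 last of the 10 genes in each library, and the places between changed. Etv5 stood above Fgf4 in TKO_FL and TKO, while in TKO_602 their intervals overlapped. In TKO_602 they ran Etv4, Spred2, Fgfr1, Spry2, Dusp6 and Spry4, in TKO_FL Spry4, Spry2, Etv4, Spred2, Dusp6 and Fgfr1, and in TKO Etv4, Spry4, Dusp6, Spry2, Fgfr1 and Spred2. Counting intervals of neighbours overlapped from Etv4 to Fgfr1 and from Spry2 to Spry4 in TKO_602, from Etv4 to Fgfr1 in TKO_FL, and from Dusp6 to Spred2 in TKO. The order of neighbours within these runs is therefore not resolved, while the intervals of the first and last gene of each run did not overlap.

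**Figure D1:**
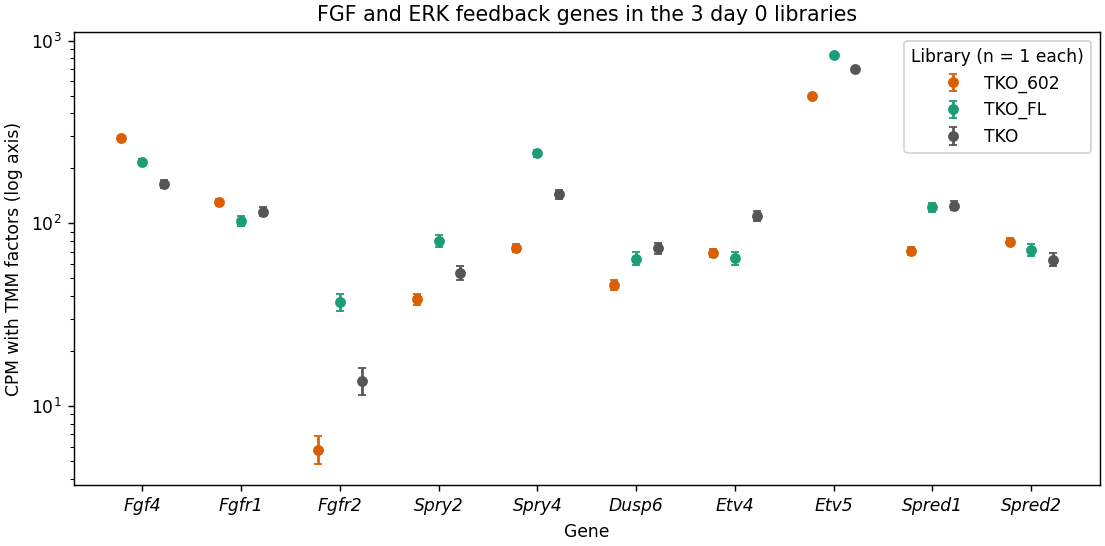
CPM with TMM factors (log axis) of the 10 genes in the TKO_602, TKO_FL and TKO libraries, 1 library each; bars are 95% Poisson intervals of the fragment counts. Fgfr2 spans the widest range, between 5.76 CPM in TKO_602 and 37.0 CPM in TKO_FL, and Etv5 is the highest gene in each library.

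Fgf4 (mm10 chromosome 7, 144861386 to 144865245, plus strand) had 294 CPM in TKO_602, 217 in TKO_FL and 164 in TKO. The ligand was thus highest in TKO_602 and lowest in TKO, with no overlap of the counting intervals. Its log2 fold was 0.84 in TKO_602 over TKO (interval of the ratio 0.77 to 0.92), 0.44 in TKO_602 over TKO_FL (0.37 to 0.51) and 0.40 in TKO_FL over TKO (0.31 to 0.50), none of which reached 2-fold. Per kilobase of exon, the scale on which genes can be compared with each other, Fgf4 was the highest of the 13 FGF genes read in all 3 libraries. It had 96.9, 71.4 and 54.0 CPM per kb in TKO_602, TKO_FL and TKO. The next ligand differed between libraries: Fgf15 at 4.11 CPM per kb in TKO_602, and Fgf17 at 16.6 in TKO_FL and 26.5 in TKO. The intervals of Fgf15, Fgf17 and Fgf3 overlapped in TKO_602 and those of Fgf17 and Fgf15 in TKO_FL, so the second place is not resolved in these libraries.

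Fgfr1 (chromosome 8, 25518759 to 25575718, plus strand), the main FGF receptor of embryonic stem cells, had 131 CPM in TKO_602, 103 in TKO_FL and 116 in TKO. The 3 levels lay close together, with log2 folds of 0.17 in TKO_602 over TKO, 0.34 in TKO_602 over TKO_FL and -0.17 in TKO_FL over TKO. The annotation places Gm16159 on the other strand over 125 bases of Fgfr1 exons; it was at 0.112 CPM or less in each library.

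Fgfr2 (chromosome 7, 130162451 to 130266808, minus strand), the second receptor for FGF4, rested on 258 reads in TKO_602, 712 in TKO_FL and 285 in TKO, which gave 5.76, 37.0 and 13.8 CPM. It was highest in TKO_FL and lowest in TKO_602, and the counting intervals of the levels (4.81 to 6.84, 33.3 to 41.1 and 11.5 to 16.2 CPM) did not overlap. TKO_602 stood 6.43-fold below TKO_FL, a log2 fold of -2.49 (interval of the ratio -2.99 to -2.39), and 0.146% of the 13683 genes in that comparison had a lower value. TKO_FL stood 2.69-fold above TKO (log2 1.37, interval 1.15 to 1.72), and TKO_602 stood 2.39-fold below TKO (log2 -1.13, interval -1.61 to -0.90). With a pseudocount of 5 CPM the last value was -0.80, inside 2-fold.

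Between the receptor genes, levels per kilobase changed place below Fgfr1. Fgfr1 had 26.0, 20.6 and 23.1 CPM per kb in TKO_602, TKO_FL and TKO and was first in each. Fgfr2 had 1.08, 6.92 and 2.57 CPM per kb, which put it last of the 4 receptor genes in TKO_602 and second in TKO_FL and TKO. Fgfr4 had 4.21, 1.37 and 1.52 CPM per kb and was second in TKO_602. The intervals of Fgfr2 and Fgfr3 (1.27 CPM per kb) overlapped in TKO_602, at 0.90 to 1.28 and 1.06 to 1.51, so their order there is not resolved.

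**Figure D2:**
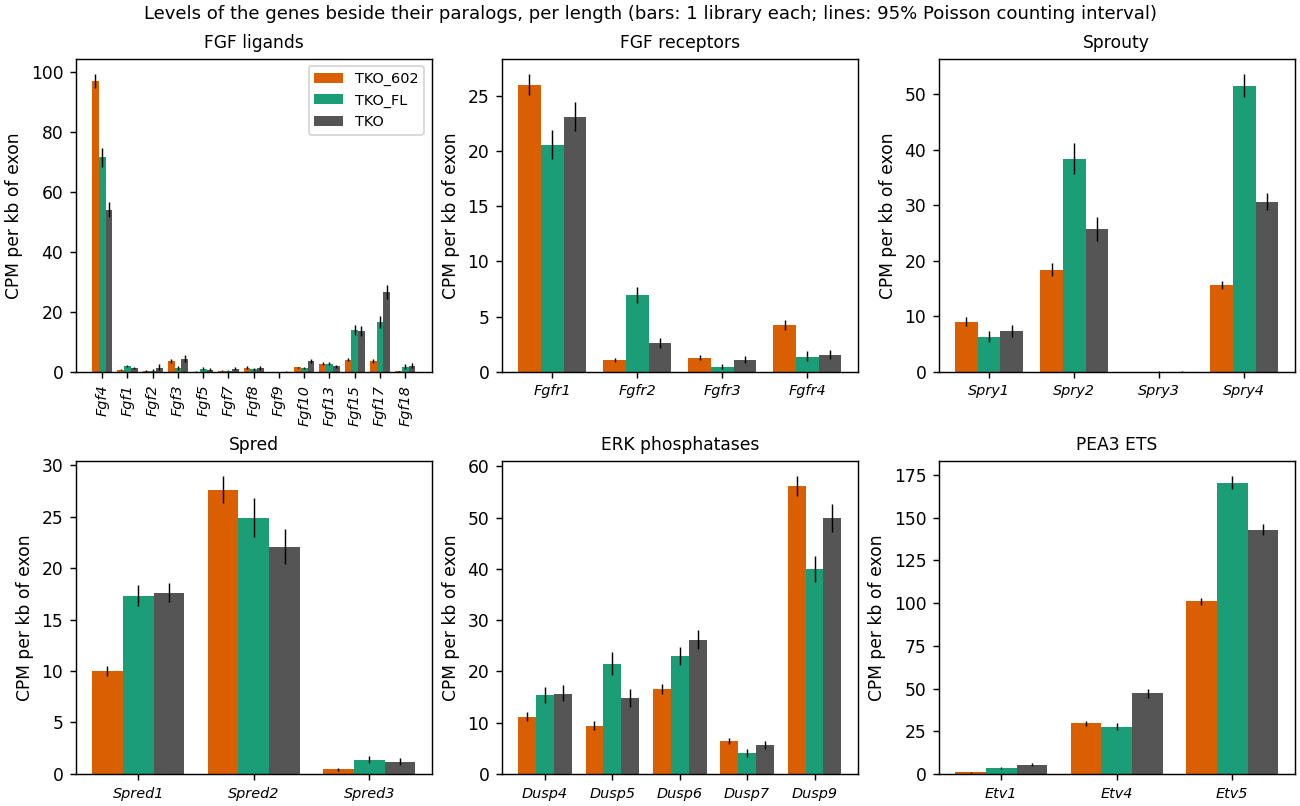
Levels in CPM per kb of exon for the 10 genes and their paralogs, by family, in the TKO_602, TKO_FL and TKO libraries (bars, 1 library each; lines are 95% Poisson counting intervals). Fgf4, Fgfr1 and Etv5 are the highest of their families in each library, Spry4 is above Spry2 in TKO_FL and TKO and below it in TKO_602, and Dusp9 is above Dusp6 in each.

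Markers of other cell types were read beside these values, because FGF receptors are also expressed in primitive endoderm and fibroblasts. The 14 primitive endoderm markers summed to 905 CPM in TKO_602, 496 in TKO_FL and 2502 in TKO, with Ttr at 0 reads in TKO_FL. Fgfr2 was therefore highest in the library where the sum of these markers was lowest. Of 12 markers measured in TKO_602 over TKO_FL, 11 were lower in TKO_FL and 1, Sox7, was lower in TKO_602. Lama1, Col4a1 and Lamb1 made up 647, 609 and 565 CPM of the sum in TKO. The 16 feeder markers summed to 657, 462 and 787 CPM in TKO_602, TKO_FL and TKO, with none at 0. Of 15 measured, 11 were lower and 4 higher in TKO_602 than in TKO, and 11 were higher and 4 lower in TKO_602 than in TKO_FL. In TKO_FL over TKO all 15 feeder markers measured were lower. Their part in the levels of Fgfr1 and Fgfr2 was not tested, and in bulk RNA fewer cells of a type and less RNA per cell cannot be told apart.

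The Sprouty genes encode inhibitors of receptor signalling upstream of ERK, and they showed the largest differences of the feedback genes in TKO_602 over TKO_FL. Spry4 (chromosome 18, 38586247 to 38601347, minus strand) had 73.5 CPM in TKO_602, 242 in TKO_FL and 144 in TKO. It was highest in TKO_FL and lowest in TKO_602. The ratio of TKO_602 to TKO_FL was a 3.29-fold decrease (log2 -1.70, interval -1.81 to -1.62), below all but 0.709% of the genes compared. TKO_602 over TKO came to -0.96 (interval of the ratio -1.07 to -0.87), just short of 2-fold, and TKO_FL over TKO to 0.74 (0.65 to 0.84).

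Spry2 (chromosome 14, 105891947 to 105896819, minus strand) had 38.4 CPM in TKO_602, 80.1 in TKO_FL and 53.5 in TKO, the same order as Spry4 with smaller steps. It was 2.08-fold lower in TKO_602 than in TKO_FL (log2 -1.04, interval -1.20 to -0.92); without TMM factors this was -0.96 and with a pseudocount of 5 CPM -0.97, both inside 2-fold. The log2 folds were -0.47 in TKO_602 over TKO and 0.57 in TKO_FL over TKO. Per kilobase Spry4 led the family in TKO_FL and TKO, at 51.5 and 30.7 CPM per kb, while in TKO_602 Spry2 led with 18.4 against 15.7 CPM per kb for Spry4. Spry1, their paralog, had 9.03, 6.34 and 7.38 CPM per kb in TKO_602, TKO_FL and TKO and did not share their order.

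Dusp6 (chromosome 10, 99263231 to 99267489, plus strand), the ERK phosphatase, had 46.1 CPM in TKO_602, 64.2 in TKO_FL and 73.0 in TKO. Its lowest level was in TKO_602, and the intervals of TKO_FL and TKO overlapped slightly (59.2 to 69.4 and 67.9 to 78.4 CPM). The log2 folds were -0.65 in TKO_602 over TKO (interval -0.80 to -0.52), -0.47 in TKO_602 over TKO_FL and -0.18 in TKO_FL over TKO. Per kilobase it was second by value among the 5 phosphatase genes of its class in each library, with 16.5, 22.9 and 26.1 CPM per kb in TKO_602, TKO_FL and TKO, below Dusp9 at 56.2, 39.9 and 49.9; in TKO_FL its interval overlapped that of Dusp5, so second place is not resolved there.

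The ETS factor genes Etv5 and Etv4 differed from each other. Etv5 (chromosome 16, 22381313 to 22439570, minus strand) had 497 CPM in TKO_602, 839 in TKO_FL and 703 in TKO, the highest of the 10 genes in each library. Its order was that of the Sprouty genes, with log2 folds of -0.75 in TKO_602 over TKO_FL (interval -0.80 to -0.71), -0.50 in TKO_602 over TKO and 0.26 in TKO_FL over TKO. Etv4 (chromosome 11, 101769748 to 101785310, minus strand) had 69.0 CPM in TKO_602, 64.5 in TKO_FL and 110 in TKO. It stood highest in TKO and about level in the other pair: the log2 folds were -0.66 in TKO_602 over TKO, -0.76 in TKO_FL over TKO, and 0.10 in TKO_602 over TKO_FL with an interval of -0.04 to 0.23. Etv1, the third gene of this ETS group, had 3.77 CPM in TKO_602, 14.4 in TKO_FL and 23.9 in TKO.

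The Spred genes encode inhibitors that act on RAS signalling through neurofibromin. Spred1 (chromosome 2, 117121071 to 117182277, plus strand) had 70.5 CPM in TKO_602, 123 in TKO_FL and 125 in TKO. It was low in TKO_602 and level in TKO_FL and TKO (log2 -0.02, interval -0.14 to 0.09), with log2 folds of -0.81 in TKO_602 over TKO and -0.79 in TKO_602 over TKO_FL. Spred2 (chromosome 11, 19924442 to 20022597, plus strand) had 79.3, 71.4 and 63.3 CPM in TKO_602, TKO_FL and TKO, and its log2 folds lay between 0.15 and 0.32. Spred2 was thus the member of the 7 feedback and target genes that was not lower in TKO_602 than in TKO.

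**Figure D3:**
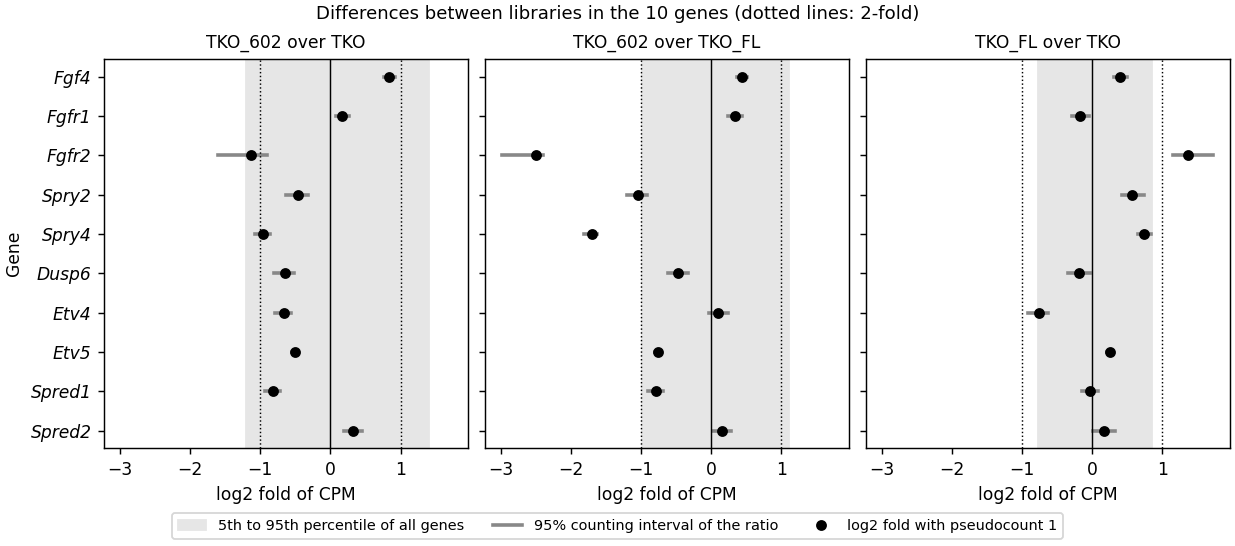
Log2 folds of CPM of the 10 genes in the 3 comparisons (points, pseudocount 1 CPM), with the 95% counting interval of the ratio as grey lines; shading spans the 5th to 95th percentile of all genes compared and dotted lines mark 2-fold. Fgfr2, at -2.49, Spry4, at -1.70, and Spry2, at -1.04, lie left of the shading in TKO_602 over TKO_FL, and Fgfr2, at 1.37, lies right of it in TKO_FL over TKO.

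Against all genes, calls among the 10 were as follows. In TKO_602 over TKO_FL, 3 of the 10 were called, all lower (Fgfr2, Spry4 and Spry2), where 11.6% of 13683 genes were called in either direction, 6.75% as higher and 4.87% as lower. In TKO_602 over TKO, 1 of the 10 was called, as lower (Fgfr2), beside 19.0% of 13748 genes in either direction, 11.0% as higher and 8.06% as lower. In TKO_FL over TKO, 1 of the 10 was called, as higher (Fgfr2), beside 5.74% of 13563 genes in either direction, 3.24% as higher and 2.5% as lower. A share of 1 in 10 is not above the background in TKO_602 over TKO. In TKO_FL over TKO the call is likewise a single gene and says nothing about the 10 as a set.

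The median log2 fold of the 10 genes was -0.57 in TKO_602 over TKO, where the median of all genes was 0.03, and 7 of the 10 lay below 0. It was -0.61 in TKO_602 over TKO_FL, where that of all genes was 0.03, with 6 of 10 below 0. It was 0.21 in TKO_FL over TKO, beside 0.00 for all genes, with 6 of 10 above 0. The comparisons share libraries, so these medians are not independent of each other. Counting intervals left out 0 for 10 of 10 genes in TKO_602 over TKO, 9 in TKO_602 over TKO_FL and 9 in TKO_FL over TKO; among all genes this held for 74.6%, 68.2% and 51.7%, so at this depth counting error alone separates most genes.

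Other genes of the pathway were read from 6 lists by role, 85 genes in all. Together their medians stayed near 0: -0.05 over 80 genes in TKO_602 over TKO, 0.00 over 80 in TKO_602 over TKO_FL and -0.07 over 81 in TKO_FL over TKO. In TKO_602 over TKO 27 of 80 were called, 11 higher and 16 lower, beside 19.0% of all genes. In TKO_602 over TKO_FL 24 of 80 were called, 11 higher and 13 lower, beside 11.6%, and in TKO_FL over TKO 9 of 81, 2 higher and 7 lower, beside 5.74%.

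The other FGF genes, listed as ligands, were the list with the lowest medians in TKO_602. The list also holds Fgf13, whose product is not a secreted ligand and which was not called in any comparison. Of 10 measured, 6 were called lower in TKO_602 than in TKO and none higher, beside 8.06% and 11.0% of all genes. Their median was -1.13. Of 9 measured, 5 were lower and 1 higher in TKO_602 than in TKO_FL, beside 4.87% and 6.75% of all genes. The median there was -1.28. Fgf5 and Fgf18, called lower in both comparisons, rested on 8 and 13 reads in TKO_602. Both were below 1 CPM there and were measured only because the other library reached 1 CPM, so they could only come out lower. The same held for Fgf7, called lower in TKO_602 over TKO, with 37 reads in TKO_602. The medians include these genes. Fgf17, a ligand of the FGF8 group, had 6.14 CPM in TKO_602, 28.1 in TKO_FL and 44.8 in TKO (log2 -2.68 in TKO_602 over TKO). Fgf18 had 0.290, 2.76 and 3.23 CPM, and Fgf15, the mouse endocrine FGF of the intestine, had 7.43, 25.0 and 24.3 CPM. These ligands were lowest in TKO_602, where Fgf4 was highest. In TKO_FL over TKO 3 of 10 were called lower and none higher, beside 2.5% and 3.24% of all genes. One of them, Fgf7, was at 0.884 CPM in TKO_FL and was measured only through its level in TKO. The lowest was Fgf10, at 6.87, 5.62 and 16.4 CPM in TKO_602, TKO_FL and TKO, then Fgf3 at 4.24, 1.46 and 5.26 CPM. Fgf10 is a ligand that mesenchymal cells make, and it was highest in the library with the highest feeder marker sum, 787 CPM; the part of feeder cells in it was not tested.

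Among 15 other receptors and cofactors measured, 3 were called higher and 3 lower in TKO_602 than in TKO, beside 11.0% and 8.06% of all genes. Syndecan-4 (Sdc4), a heparan sulfate proteoglycan, had 406 CPM in TKO_602, 155 in TKO_FL and 94.3 in TKO, and Fgfr4 had 13.3, 4.32 and 4.78 CPM. Klb, which encodes the co-receptor beta-klotho, had 1.87, 0.104 and 7.10 CPM. Its log2 fold in TKO_FL over TKO, -2.87, was the lowest of the list but rested on 2 reads in TKO_FL. Fgfbp1, a secreted FGF carrier, had 4.71, 25.0 and 11.2 CPM in TKO_602, TKO_FL and TKO, the order that Fgfr2 and the Sprouty genes also had.

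Of 14 RAS, RAF, MEK and ERK genes, which form the cascade itself, none was called in TKO_FL over TKO, beside 5.74% of all genes, and 1 higher and 1 lower in each comparison with TKO_602, beside 19.0% (over TKO) and 11.6% (over TKO_FL) of all genes. The lower one was Map2k2, which encodes MEK2, with 52.1 CPM in TKO_602, 111 in TKO_FL and 133 in TKO, and the higher one was the scaffold gene Ksr1, with 29.9, 10.6 and 7.92 CPM. Mapk3, which encodes the kinase ERK1, had 73.9, 74.0 and 71.4 CPM in TKO_602, TKO_FL and TKO. Of 11 adaptors, 3 were called higher in TKO_602 than in TKO and none lower, beside 11.0% and 8.06% of all genes. Gab2 was at 5.07, 1.92 and 0.772 CPM in TKO_602, TKO_FL and TKO. It rested on 16 reads in TKO, below 1 CPM, so it could only come out higher in TKO_602 over TKO. Frs3, an FGF receptor substrate, was at 18.8, 6.08 and 7.58 CPM.

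Genes listed as other negative regulators had a median of -0.43 in TKO_602 over TKO. Of 15 measured, 3 were called lower and 1 higher, beside 8.06% and 11.0% of all genes. The list also holds Flrt3, which is not an established inhibitor of the pathway and was 1 of the 3 called lower. The lowest was Sulf1, a sulfatase that trims heparan sulfate, at 23.1 CPM in TKO_602, 90.0 in TKO_FL and 107 in TKO, and the one called higher was the RAS inhibitor gene Nf1, at 40.4, 21.5 and 17.8 CPM. Dusp5, a nuclear ERK phosphatase, had 17.0, 38.9 and 26.8 CPM in TKO_602, TKO_FL and TKO. It was 1 of 3 of the 15 called lower in TKO_602 over TKO_FL, beside 4.87% of all genes. In TKO_FL over TKO, 2 of 15 were called lower, beside 2.5% of all genes. These were Flrt3, at 5.82 against 15.6 CPM, and Pea15a, at 14.6 against 30.8 CPM.

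Other ERK target genes went both ways. In TKO_602 over TKO 3 of 15 were higher and 3 lower, beside 11.0% and 8.06% of all genes. The immediate early genes Fos (log2 2.24) and Egr1 (1.59) led the higher ones and Myc (-3.46) and Etv1 (-2.38) the lower ones. In TKO_602 over TKO_FL 3 of 16 were higher and 3 lower, beside 6.75% and 4.87% of all genes, with Ier3 at 21.3 against 6.03 CPM the highest. In TKO_FL over TKO 1 of 16 was higher, Fos (log2 1.05), beside 3.24% of all genes. The 1 lower was Elk3, at 9.00 against 19.3 CPM, beside 2.5%. Fos and Egr1 thus lay above 0 in TKO_602 over TKO, where Spry2, Spry4, Dusp6, Etv4 and Etv5 lay below 0. The list itself was split there, with 7 of the 15 target genes above 0 and 8 below.

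**Figure D4:**
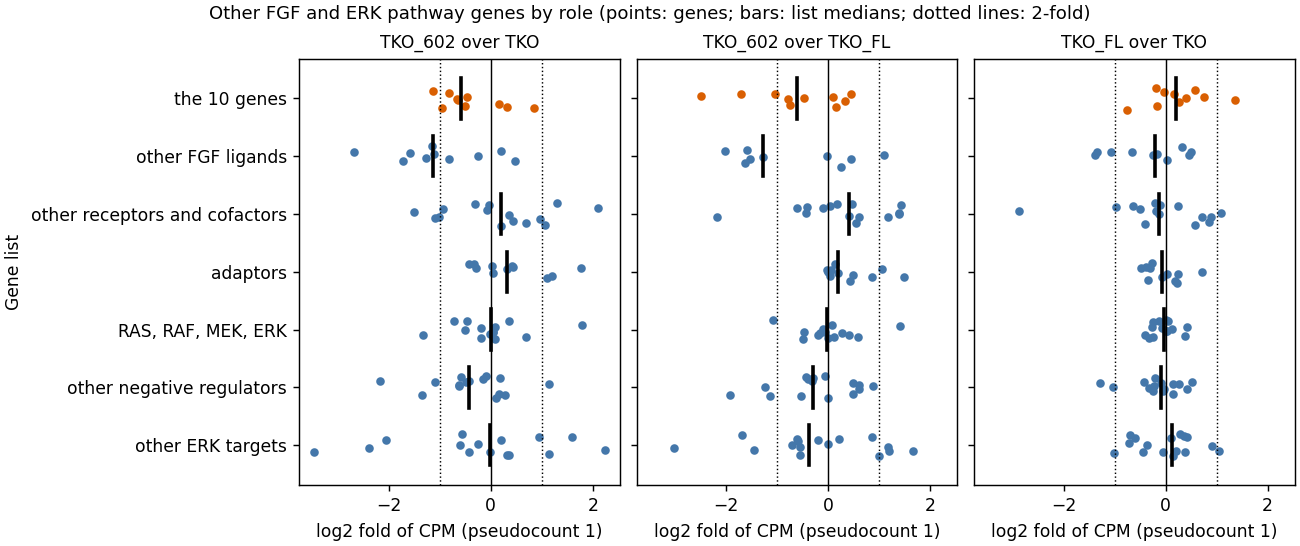
Log2 folds of CPM (pseudocount 1) of the 10 genes and of 6 lists of other pathway genes in the 3 comparisons; each point is a gene, bars are list medians and dotted lines mark 2-fold. The other ligands have medians of -1.13 in TKO_602 over TKO and -1.28 in TKO_602 over TKO_FL, while RAS, RAF, MEK and ERK genes have medians of 0.01 and -0.03 there. The ligand medians include genes below 1 CPM in TKO_602, which could only come out lower.

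Since the lines differ in DNA methyltransferase state, the sequence around the start sites was read for CpG, the dinucleotide that these enzymes methylate; methylation itself was not analysed here. A RefSeq table of promoter windows of 300 bases (250 before to 50 after the start, build GRCm38.p6) matched 7 of the 10 genes: Fgf4, Fgfr2, Spry2, Dusp6, Etv5, Spred1 and Spred2. Fgfr1, Spry4 and Etv4 had no window, and whether CpG number goes with the range of levels was not tested. Fgfr2, the gene with the widest range of levels, had 4 CpGs in its window and a GC content of 43.7%, the lowest of the 7 genes. The other 6 had between 17 CpGs (Spred2) and 40 (Spred1) in a window, with 28 for Fgf4 and for Spry2, 19 for Dusp6, and 37 and 19 for the 2 windows of Etv5. The median over all 32851 windows in the table was 7 CpGs.

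The 250 bases before the start of 3 of these genes are shown, for the receptor with few CpGs and for Fgf4 and Spry2, whose windows hold the same number of CpGs, each 5′ to 3′ on the gene's strand with CpGs in capitals. The windows are chr7:130266809-130267058 (minus strand) for Fgfr2, chr7:144861136-144861385 (plus strand) for Fgf4 and chr14:105896820-105897069 (minus strand) for Spry2.
Fgfr2: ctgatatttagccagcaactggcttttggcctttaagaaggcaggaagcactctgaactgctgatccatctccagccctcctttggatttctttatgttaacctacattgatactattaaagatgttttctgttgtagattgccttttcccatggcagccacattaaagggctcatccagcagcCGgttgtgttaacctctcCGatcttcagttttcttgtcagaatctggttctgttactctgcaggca
Fgf4: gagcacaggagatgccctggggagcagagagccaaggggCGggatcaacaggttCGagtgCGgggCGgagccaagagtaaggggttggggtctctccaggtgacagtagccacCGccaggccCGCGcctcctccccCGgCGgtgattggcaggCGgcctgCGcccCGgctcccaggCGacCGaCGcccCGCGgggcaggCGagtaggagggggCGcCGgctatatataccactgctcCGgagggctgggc
Spry2: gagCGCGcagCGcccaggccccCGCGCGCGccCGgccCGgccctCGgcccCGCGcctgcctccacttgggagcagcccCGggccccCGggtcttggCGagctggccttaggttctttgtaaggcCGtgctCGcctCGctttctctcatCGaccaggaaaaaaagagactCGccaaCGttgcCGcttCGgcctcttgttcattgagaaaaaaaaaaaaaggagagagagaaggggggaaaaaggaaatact
These stretches hold 2 CpGs in Fgfr2, 21 in Fgf4 and 23 in Spry2. The ETS core GGAA, searched on both strands, occurred 4 times in the 300-base window of Fgfr2, 0 times in that of Fgf4 and 5 times in that of Spry2; 96.0% of all windows hold it at least once. The longer ETS motif CCGGAAG, which contains that core, was in none of the windows of the 7 genes and in 8.86% of all windows. A match is no evidence of a bound site, and no match says only that these letters are not in the window.

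Genes with the most similar pattern were ranked by the Euclidean distance between pairs of log2 folds (TKO_602 over TKO and TKO_FL over TKO). For Fgf4 the nearest of 11263 genes were Tbc1d22b, Mmab and Crlf2, at distances of 0.008, 0.009 and 0.011, and 89 genes lay within 0.1. For the median of the 7 feedback and target genes the nearest of 11264 were Zfp26, Zwint and Dhx33, with 56 genes within 0.1. With 3 libraries such a pattern is shared by many genes.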

How the data were processed

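RNA was measured in 1 library each of TKO_602, TKO_FL and TKO, grouped by the genotype in the sample titles. Per the file headers, the deposited counts were made with featureCounts 2.0.6, with the paired option, on mm10 and its RefSeq genes, without options for strand, read pairs or multi-mapping reads, so mates are counted apart and reads shared by overlapping genes are dropped; the submitters' processing notes also name Trim Galore, HISAT2, SAMtools and Subread. The authors' deposited signal table, named TPM, sums to 10000000 per column; its values were divided by 10 and used only as an alternative for TKO_FL over TKO. Each of these files has 11 columns of other libraries, which were not used.

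Counts were turned into CPM with TMM factors over the 3 libraries (1.04 for TKO_602, 0.983 for TKO_FL and 0.980 for TKO; edgeR 4.0.16, R 4.3.3), and into CPM per kb with the table's exonic length. Log2 folds used a pseudocount of 1 CPM over genes with at least 1 CPM in either library, a filter that all 10 genes passed in each comparison. Intervals are exact binomial (ratios) and Poisson (levels) at 95%, from reads divided by 2, and leave PCR duplicates in. Alternatives were pseudocounts of 0.1 and 5 CPM, library totals without TMM, DESeq2 1.42.0 size factors, no filter, a minimum of 5 CPM and the deposited signal. Python 3.11.15, numpy 2.4.6, pandas 2.3.3 and scipy 1.17.1 were used, and the fold step was tested on simulated counts. Promoter windows are RefSeq's, for GRCm38.p6; the annotated start was the same base in the count table for 7 of the 7 genes matched.

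The 10 genes and all lists were chosen with earlier results of these data known. Named beside them are the 2 highest and 2 lowest genes past 2-fold in each pathway list and comparison, of which the text gives a selection, and the 3 genes nearest in pattern to Fgf4 and to the median of the feedback genes; Mapk3, Spry1, Dusp9, Fgfr3, Dusp5 and the neighbours of Fgf4 were chosen after their values were seen.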

Additional observations from a re-analysis of the deposited data

How the results depend on the processing

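Each of the 190 member folds recomputed under the alternatives kept its sign. Of these, 187 kept their side of 2-fold; the others were Fgfr2 in TKO_602 over TKO (-0.80 with a pseudocount of 5 CPM) and Spry2 in TKO_602 over TKO_FL (-0.97 with that pseudocount and -0.96 without TMM factors). With the pseudocount of 5 CPM, 0 of the 10 genes were called in TKO_602 over TKO, and the calls over all genes were 1212 in that comparison, 618 in TKO_602 over TKO_FL and 175 in TKO_FL over TKO, beside 2614, 1591 and 779 with 1 CPM. With 0.1 CPM the last count was 1474. A larger pseudocount lowers folds of low genes by construction. Medians of the 10 genes and of the other pathway genes moved by at most 0.1 under every alternative run; those of the other pathway genes in TKO_602 over TKO (0.019 without TMM factors) and over TKO_FL (-0.0076 with DESeq2 size factors) changed sign near 0. No paired analysis was possible because each genotype has 1 library, and none could be left out. Depth limits Fgfr2 most, with 258 reads in TKO_602.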

Other observations

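Fgf4 lies in a cluster on mouse chromosome 7 whose genes did not share its pattern; the region was read after its values were seen. Within 250 kb of Fgf4 the count table lists 5 other genes. Fgf3, 18038 bases away, had 4.24 CPM in TKO_602, 1.46 in TKO_FL and 5.26 in TKO. Fgf15, 31287 bases away on the other side, had 7.43, 25.0 and 24.3 CPM, and Ccnd1, the cyclin D1 gene 64686 bases away, had 35.6, 98.7 and 150 CPM. Fgf4 had 294, 217 and 164 CPM, so it was highest in TKO_602, where Fgf15 and Ccnd1 were lowest. LTO1, which overlaps Ccnd1 on the other strand so that reads on both are dropped, had 8.59, 9.88 and 14.6 CPM in TKO_602, TKO_FL and TKO, and Ano1 was at 1.16 CPM or less in each.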
